A study of Mus musculus with 30 samples.

Results

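Histone genes were followed in mouse embryonic fibroblasts (MEFs) exposed to 3 activators of the p38 stress-activated protein kinase (SAPK). They were taken as every gene whose symbol on the array began with Hist and a cluster number followed by h, or with H1f, H2af or H3f3. This gave 47 of the 21689 named genes, measured by 68 probes. By symbol, 9 were classed as linker histones, 30 as core histones and 8 as variant histones. The core class was meant for the replication-dependent kind. It also holds the testis gene Hist1h2ba and Hist3h2bb, whose RefSeq entry is named as a pseudogene. All 47 names matched a RefSeq gene, 46 in number because H2afy2 and H2afy3 lead to the same gene. In RefSeq, 20 of the core and 6 of the linker genes lie on chromosome 13, and 6 further core genes lie on chromosome 3.

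Total RNA was measured on 30 Agilent 44K arrays in 2 colours, 2 for each of 15 groups. All cells were immortalised MEFs in exponential growth, 1 wild type (wt) line and 1 line without p38α as far as the sources used here say, so that line and genotype cannot be told apart. The wt MEFs received 25 ng/ml anisomycin, an inhibitor of protein synthesis, for 45 min, the cytokine TNFα at 100 ng/ml for 45 min, or a hyperosmotic shock of 100 mM NaCl for 45 min, 2 h or 8 h. Each stress was given alone and after the p38α and p38β inhibitor SB203580, and the last of the 11 wt groups received SB203580 without a stress. The protocol gives 10 µM of the inhibitor from 30 min before the stress, whereas the sample titles give 10 mM and 2 h. Of the 4 groups of p38α-/- MEFs, 1 was left untreated and the others had anisomycin, TNFα or 2 h of NaCl at the doses above. On every array the sample carried Cy5 and the same pool of 2 untreated wt cultures carried Cy3, with no dye swap. No separate sample of untreated wt MEFs was used, so a log2 ratio against the pool, on which all values below rest, holds the dye and the pool as well as the treatment. Unstressed cells were not sampled at each stress time either, so differences between times of NaCl also hold the time in culture.

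The nucleosome wraps DNA around pairs of the core histones H2A, H2B, H3 and H4, and a linker histone of the H1 family sits where the DNA enters and leaves. Most core and linker genes are transcribed during DNA replication, and their mRNAs end in a stem loop in place of a poly(A) tail, which ties their level to ongoing DNA synthesis. Variant genes such as H3f3a, H3f3b, H2afz and H2afy are transcribed through the cell cycle into polyadenylated mRNA. The first cDNA strand was made with random primers, which do not need a poly(A) tail. In bulk RNA, fewer cells in S phase and less histone mRNA per cell cannot be told apart.

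Of the 2040 member spots, 394 (19.3%) were marked as outliers by the scanner software and left out, 2 to 25 of the 68 on each array, and 128 were saturated. Every member but Hist2h3c1 was measured on both arrays of at least 1 group. Mapk14, which encodes p38α, had a log2 ratio of -2.24 to -0.94 on the 6 of 8 arrays of p38α-/- MEFs that measured it and of 0.05 to 1.31 on 16 of 22 of wt MEFs, and these arrays did not overlap between the genotypes. All 9 fibroblast markers tried, Col1a1 and Vim among them, were well above background on all 30 arrays, but so were blood markers such as Ptprc, and the flag therefore tells little about cell type. All first arrays of wt groups were scanned on 1 day, all second arrays of wt groups and first arrays of p38α-/- groups on another, and the remaining arrays on 2 further days. Probe sequences were not used here, and histone genes of 1 family are near copies of each other, so a probe may also read its gene's relatives.

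The promoters of 7 genes on which the results turn are shown here because their families differ in the short motifs they carry. Hist1h4i, which rose with the H2B genes shown under anisomycin and at 8 h of NaCl, holds none of the marked letters in this stretch. Each line gives the 120 bases before the transcription start from RefSeq (GRCm38.p6), read 5′ to 3′ along the gene. Capitals mark the letters CCAAT, which read as ATTGG on the other strand, the octamer ATTTGCAT, the TATA box letters TATAAA and the AAACACA of the H1 box, wherever they occur on either strand, and no marked motif overlaps another.
Hist1h2ai (chr13:21716292-21716411, plus strand): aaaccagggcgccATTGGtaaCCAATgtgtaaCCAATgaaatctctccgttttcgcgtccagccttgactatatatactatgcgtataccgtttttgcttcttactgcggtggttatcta
Hist2h2ac (chr3:96220881-96221000, minus strand): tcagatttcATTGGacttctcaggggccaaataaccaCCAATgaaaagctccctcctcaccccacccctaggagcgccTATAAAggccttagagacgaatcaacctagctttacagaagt
Hist1h2bk (chr13:22035701-22035820, plus strand): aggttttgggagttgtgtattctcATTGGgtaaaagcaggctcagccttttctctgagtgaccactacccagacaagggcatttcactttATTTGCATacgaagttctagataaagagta
Hist1h2bm (chr13:21721924-21722043, plus strand): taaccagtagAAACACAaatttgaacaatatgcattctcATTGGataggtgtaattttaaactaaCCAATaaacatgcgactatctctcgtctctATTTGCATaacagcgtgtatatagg
Hist1h4i (chr13:22041363-22041482, minus strand): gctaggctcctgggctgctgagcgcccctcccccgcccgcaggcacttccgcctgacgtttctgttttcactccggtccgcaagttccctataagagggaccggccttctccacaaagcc
Hist1h1c (chr13:23738687-23738806, plus strand): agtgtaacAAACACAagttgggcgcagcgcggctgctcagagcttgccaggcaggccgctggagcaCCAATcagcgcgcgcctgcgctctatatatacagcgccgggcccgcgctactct
Hist1h1b (chr13:21780626-21780745, minus strand): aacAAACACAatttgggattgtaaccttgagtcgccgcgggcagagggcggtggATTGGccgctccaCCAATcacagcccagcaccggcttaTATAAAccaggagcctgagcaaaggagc

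In the 300 bases from 250 before to 50 after the start, CCAAT was found in 12 of 12 H2A and 6 of 6 H2B genes of the 41 members with a promoter entry, against 41.1% of 27025 genes. The octamer was found in 5 of 6 H2B genes, 6 of 12 H2A genes and none of the 9 linker genes, against 1.97% of all genes. TATAAA was found in 61.5% of 26 core genes against 15.7% of all genes, and AAACACA in 55.6% of the 9 linker genes against 8.22%. Of 6 H4 genes, 2 held CCAAT and none the octamer. These matches describe letters only.

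Against the pool, 32 of the 47 genes differed in at least 1 group at an adjusted p under 0.05 (limma, Benjamini-Hochberg over all named genes measured), 11 of them only higher, 15 only lower and 6 higher in some groups and lower in others. The test sets 2 arrays against a ratio of 0, so it leaves out the spread of the control itself. With anisomycin, 9 histone genes were higher and 4 lower of 31 tested, where 5.72% of all genes tested were higher and 6.28% lower. With TNFα, 2 were higher and 6 lower of 37 (5.25% and 5.72% of all genes). With NaCl, 2 were higher and 11 lower of 37 at 45 min (4.69% and 5.19%), 2 higher and 8 lower of 44 at 2 h (5.24% and 4.69%), and 7 higher and 7 lower of 39 at 8 h (11% and 11.2%).

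**Figure D1:**
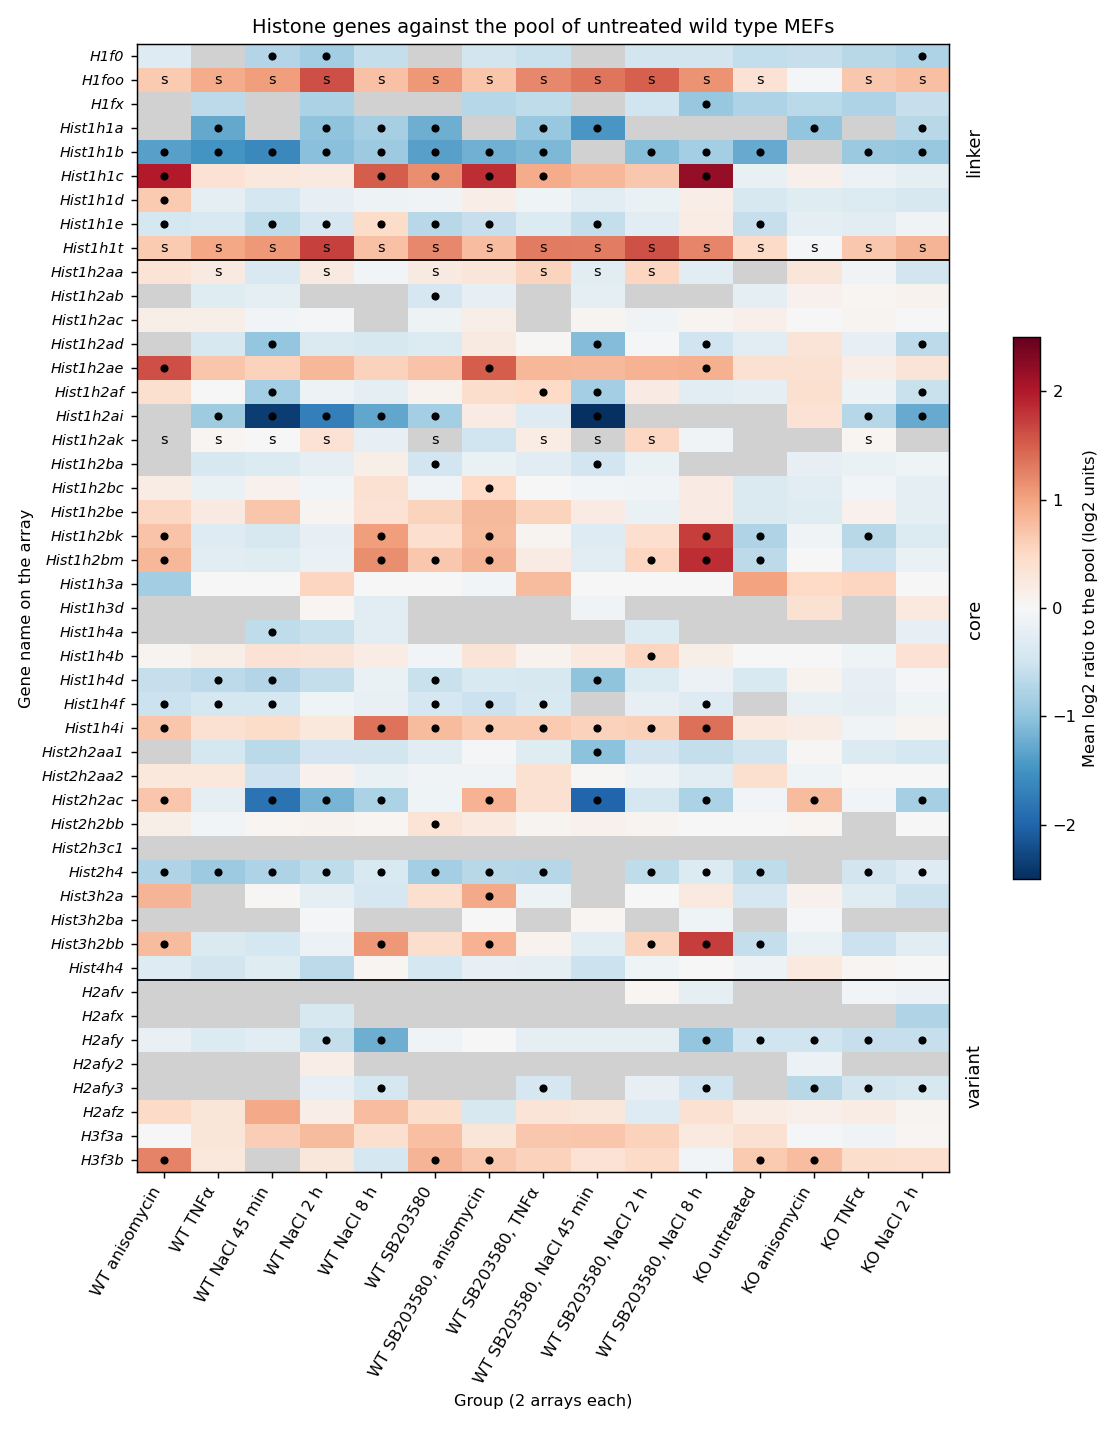
Mean log2 ratio to the pool of each histone gene (rows, in linker, core and variant blocks) in each of the 15 groups of 2 arrays (columns), red higher and blue lower. Dots mark an adjusted p under 0.05 (limma), s marks groups in which the pool channel was saturated on both arrays, and grey marks genes not measured on both arrays; Hist1h2ai and Hist2h2ac are darkest blue at 45 min of NaCl with and without SB203580.

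With SB203580 alone, 7 histone genes were higher and 9 lower of 36, where 14.7% and 11.8% of all genes were. With the inhibitor and a stress, the counts were 10 higher and 4 lower of 39 for anisomycin (5.33% and 6.33% of all genes), 5 and 5 of 38 for TNFα (5.61% and 3.91%), 3 and 9 of 34 for NaCl at 45 min (8.79% and 7.97%), 6 and 2 of 39 at 2 h (9.39% and 7.69%) and 8 and 8 of 38 at 8 h (10.5% and 10.7%). In p38α-/- MEFs, 1 was higher and 7 lower of 33 without treatment (8.02% and 6.96%), 2 and 3 of 40 with anisomycin (6.4% and 5.99%), 0 and 6 of 39 with TNFα (3.44% and 4.18%; at an unadjusted p under 0.05, limma gave 3 and 11) and 2 and 10 of 43 with NaCl (9.06% and 8.91%). The share of lower histone genes stood above that of all genes in 14 of the 15 groups, untreated p38α-/- MEFs and SB203580 alone included. The share of higher ones did so in 10, by little for SB203580 with NaCl at 45 min (8.82% against 8.79%). Some higher calls came from members whose pool channel was saturated on both arrays. Without them, 0 histone genes were higher with TNFα and 0 with NaCl at 45 min. With SB203580 alone 5 remained, and 1 with SB203580 and NaCl at 45 min. In these groups the higher share was then not above that of all genes. The split between higher and lower moved with the scaling in several groups. With the submitters' processed values the split was 10 higher and 15 lower for NaCl at 8 h. For SB203580 it was 11 and 14 with NaCl at 8 h and 11 and 8 with TNFα. With normexp background correction it was 12 and 5 for SB203580 alone, 8 and 4 for SB203580 with TNFα, 5 and 9 for SB203580 with NaCl at 45 min and 6 and 2 for p38α-/- MEFs with anisomycin, and with the submitters' processed values of the same arrays it was 14 and 11 for SB203580 alone, 11 and 8 for SB203580 with NaCl at 2 h and 7 and 5 for p38α-/- MEFs with anisomycin. Of the 165 results called in the 15 groups, 46 were also called with either of the group's 2 arrays left out. With the replicate number as a block, the counts rose over 1.5 times in 4 groups, to 6 higher and 15 lower for NaCl at 45 min, 9 and 7 for SB203580 with TNFα, 3 and 12 for untreated p38α-/- MEFs and 1 and 10 for p38α-/- MEFs with TNFα.

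The largest falls among the members were those of H2A genes early in the hyperosmotic shock. Hist1h2ai, which encodes a core H2A on chromosome 13, fell 5.18-fold below the pool at 45 min of NaCl, and Hist2h2ac, an H2A gene of the chromosome 3 cluster, fell 3.58-fold. Both stood nearer the pool at 2 h and at 8 h, and with SB203580 before the shock they fell 5.73-fold and 3.93-fold at 45 min. Their promoters, printed above, hold CCAAT on both strands and no octamer within the stretch shown.

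On the 2 arrays of each group, the log2 ratio of Hist1h2ai was -2.58 and -2.16 at 45 min of NaCl, -1.79 and -1.65 at 2 h, and -1.23 and -1.38 at 8 h. The 3 times did not overlap, and both arrays at 8 h were still below those of TNFα, at -0.73 and -1.02. With SB203580 and NaCl for 45 min the ratio was -2.48 and -2.55, and in p38α-/- MEFs with NaCl for 2 h it was -1.70 and -0.82. Anisomycin left the gene near the pool, at 0.05 on its 1 measured array in wt MEFs, at 0.40 and 0.01 with SB203580 and at 0.27 and 0.44 in p38α-/- MEFs. In the fit, Hist1h2ai differed from the pool by -2.37 at 45 min (SE 0.16, adjusted p = 4.3e-06 by limma), -1.72 at 2 h (adjusted p = 2.2e-05) and -1.30 at 8 h (adjusted p = 5.7e-05), and each held with either array left out. It was also lower with TNFα (-0.88, adjusted p = 0.0039), with SB203580 alone (-0.85 and -0.86 on the arrays, adjusted p = 0.0022) and in p38α-/- MEFs with TNFα (-0.71, adjusted p = 0.017), calls that were lost without TNFα replicate 2 (adjusted p = 0.15), without SB203580 replicate 1 (adjusted p = 0.079) and without either p38α-/- TNFα array (adjusted p = 0.098 and 0.3).

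Hist2h2ac followed the same course but also stood above the pool with anisomycin. Its log2 ratio was -2.15 and -1.53 at 45 min of NaCl, -1.33 and -1.01 at 2 h and -0.84 and -0.76 at 8 h, again without overlap between the times. With SB203580 and NaCl it was -2.08 and -1.86 at 45 min, -0.80 and -0.08 at 2 h and -0.73 and -0.85 at 8 h. In p38α-/- MEFs with NaCl for 2 h it was -1.17 and -0.49 (mean -0.83, adjusted p = 0.003), a call lost without replicate 1 (adjusted p = 0.19), and the call at 8 h in wt MEFs was likewise lost without replicate 1 (adjusted p = 0.056). With anisomycin it was 0.70 and 0.71 in wt MEFs, 1.04 and 0.70 after SB203580 and 0.81 and 0.78 in p38α-/- MEFs, so all 6 anisomycin arrays lay above all 14 NaCl arrays. The fall at 45 min was -1.84 (SE 0.17, adjusted p = 1e-05) and the rise with anisomycin 0.70 (adjusted p = 0.013), 0.87 after SB203580 (adjusted p = 0.0038) and 0.80 in p38α-/- MEFs (adjusted p = 0.0057). Of these, the fall at 45 min held with either array left out, while the anisomycin rise in wt MEFs was lost without either array (adjusted p = 0.19 and 0.1), that after SB203580 without its replicate 1 (adjusted p = 0.14) and that in p38α-/- MEFs without either (adjusted p = 0.061 and 0.097).

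Differences of NaCl from other treatments, in which the pool cancels, gave the same order. NaCl at 45 min was below anisomycin at 45 min by -2.54 for Hist2h2ac (SE 0.24, adjusted p = 1.4e-05), one of 4 histone genes among 30 tested that were lower, where 0.265% of all genes were; the others were Hist1h2af (-1.25), Hist1h2bk (-1.13) and Hist3h2bb (-1.22). NaCl was below TNFα at 45 min for Hist1h2ai by -1.49 (adjusted p = 0.011) and for Hist2h2ac by -1.62 (adjusted p = 0.0038), 2 of 34 tested against 0.194% of all genes. With SB203580 in both arms, NaCl at 45 min was below the inhibitor alone by -1.66 for Hist1h2ai (adjusted p = 0.014) and -1.87 for Hist2h2ac (adjusted p = 0.003), 2 of 32 tested against 0.0217% of all genes. In p38α-/- MEFs, Hist2h2ac was lower with NaCl at 2 h than without treatment by -0.76 (95% interval -1.27 to -0.25, unadjusted p = 0.006 by limma), which did not pass the adjustment (adjusted p = 0.19). The same contrast was not made for Hist1h2ai because no array of untreated p38α-/- MEFs measured it.

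**Figure D2:**
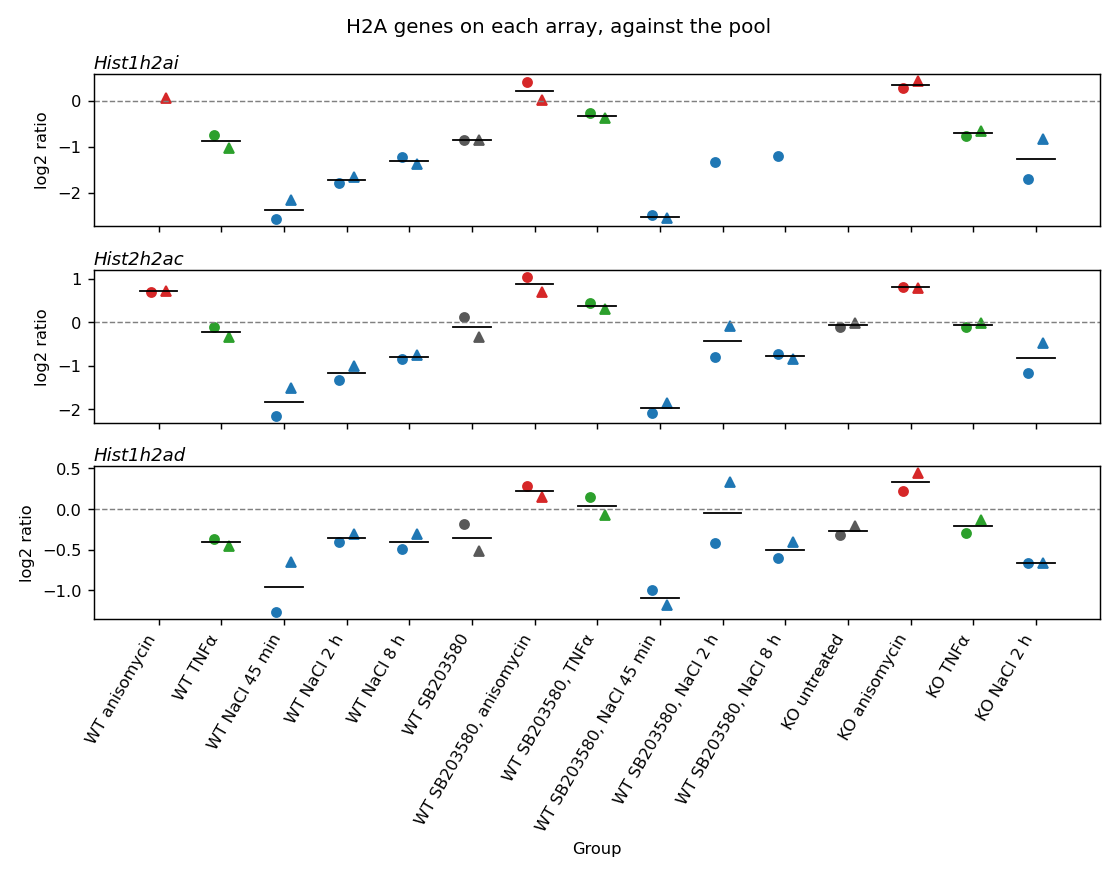
Log2 ratio to the pool of 3 H2A genes on each array (circles replicate 1, triangles replicate 2, bars the mean of a group where both were measured), with blue for NaCl, red for anisomycin, green for TNFα and grey for no stress, on axes that differ between panels. The lowest points of each gene are those of NaCl at 45 min, with or without SB203580, and those of Hist2h2ac with anisomycin lie above the pool.

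Other H2A genes fell with less precision. Hist1h2ad was lower at 45 min of NaCl (-0.96, adjusted p = 0.00093), after SB203580 and NaCl at 45 min (-1.09, adjusted p = 0.00023) and 8 h (-0.51, adjusted p = 0.022), and in p38α-/- MEFs with NaCl (-0.66, adjusted p = 0.0055), of which the call at 45 min was lost without replicate 1 (adjusted p = 0.087), those after SB203580 at 8 h (adjusted p = 0.29 and 0.1) and in p38α-/- MEFs (adjusted p = 0.065 and 0.091) without either array, and the second one held. Hist1h2af was measured by a pair of probes that disagreed. Probe A_52_P498210 fell to -1.95 at 45 min of NaCl and -2.15 with SB203580, and was lower in 9 groups. Probe A_52_P165633 was saturated in the pool channel on 26 of 30 arrays and had a mean of 0.27 and 0.45 in the same groups, and the gene's mean at 45 min was -0.84 (adjusted p = 0.0018), a call lost without replicate 1 (adjusted p = 0.17). Of the probes of Hist2h2aa1, A_52_P64609 was lower in 8 of the 11 groups where it was measured, down to -1.88 with SB203580 and NaCl at 45 min, and A_52_P542832 stayed between -0.28 and 0.26.

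**Figure D3:**
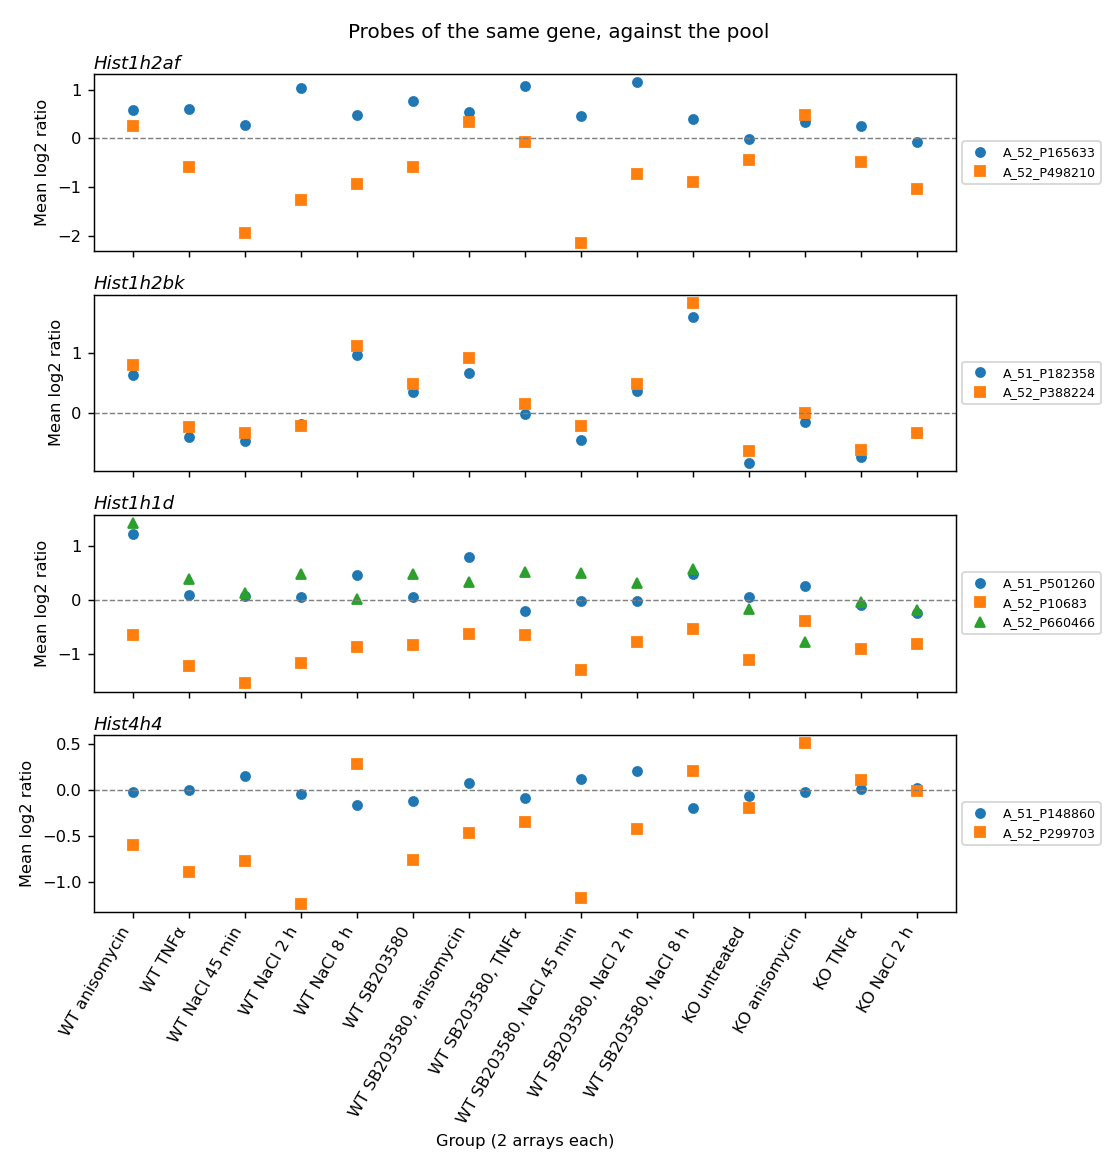
Mean log2 ratio to the pool of each probe (symbols, with the probe's name) of 4 genes with more than 1 probe in the 15 groups; a missing point was not measured on both arrays. The probes of Hist1h2bk run together, while those of Hist1h2af, Hist1h1d and Hist4h4 separate.

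Some H2A genes were higher than the pool in other groups. Besides Hist2h2ac with anisomycin, Hist3h2a was higher with SB203580 and anisomycin (0.96, adjusted p = 0.041) and Hist1h2af with SB203580 and TNFα (0.49, adjusted p = 0.04), calls lost without either array (adjusted p = 0.074 and 0.52 for Hist3h2a, 0.45 and 0.16 for Hist1h2af) and, for Hist1h2af, turned to -0.084 without saturated spots. Hist1h2ae lay above the pool on all 30 arrays, from 0.01 to 2.04, with a median of 0.67, and passed the test with anisomycin (1.61, 3.05-fold, adjusted p = 0.0026), with SB203580 and anisomycin (1.51, adjusted p = 0.0043) and with SB203580 and NaCl at 8 h (0.89, adjusted p = 0.045). In each of the 11 wt groups the first array, scanned on another day than the second, was the higher one, as with 2.04 and 1.18 under anisomycin. All 3 calls were lost without replicate 1 (adjusted p = 0.19 with anisomycin, 0.18 with SB203580 and anisomycin), and the last also without replicate 2.

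Of the 7 H2B genes tested at 8 h of NaCl, 3 were higher, and the same 3 were higher with anisomycin. Hist1h2bk and Hist1h2bm, both core H2B genes of chromosome 13, and Hist3h2bb, whose RefSeq entry is now named as a pseudogene (H2bu1-ps), stood near or below the pool at 45 min and 2 h of NaCl and rose 2.07-fold, 2.25-fold and 2.13-fold at 8 h. Their probes tracked each other closely in every group, and whether they read 3 mRNAs or a shared one cannot be told apart here. Hist1h4i, a core H4 gene of chromosome 13, rose 2.57-fold at the same time.

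Hist1h2bk had log2 ratios of -0.55 and -0.26 at 45 min of NaCl, -0.23 and -0.17 at 2 h and 1.12 and 0.98 at 8 h. Hist1h2bm had -0.45 and -0.14, then -0.24 and -0.11, then 1.19 and 1.15. Hist3h2bb had -0.58 and -0.28, then -0.16 and -0.14, then 1.08 and 1.1. For each of the 3, both arrays at 8 h lay above all arrays of the earlier times. Hist1h4i was already above the pool at 45 min (0.33 and 0.59) and 2 h (0.40 and 0.14), and reached 1.36 and 1.37 at 8 h.

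With SB203580 before NaCl for 8 h, the H2B values were higher on their first array than without it. Hist1h2bk had 2.01 and 1.46, Hist1h2bm 2.02 and 1.66, and Hist3h2bb 2.01 and 1.45, all 6 above the arrays without inhibitor. Hist1h4i, at 1.40 and 1.35, did not move apart from its values without inhibitor. The difference made by SB203580 at 8 h was 0.68 for Hist1h2bk (95% interval 0.21 to 1.16, unadjusted p = 0.0072), 0.67 for Hist1h2bm (0.17 to 1.17) and 0.64 for Hist3h2bb (0.13 to 1.14), with adjusted p from 0.5 to 0.71 by limma, so none passed. For Hist1h4i it was 0.01 (-0.50 to 0.52).

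Between 45 min and 8 h of NaCl, 8 histone genes rose and 1 fell of 35 tested, where 3.54% of all genes were higher and 3.99% lower. Time under NaCl and time in culture cannot be told apart in this comparison. The rises were 1.45 for Hist1h2bk (SE 0.23, adjusted p = 0.00049), 1.47 for Hist1h2bm (adjusted p = 0.00072), 1.52 for Hist3h2bb (adjusted p = 0.00056), 1.1 for the linker gene Hist1h1e (adjusted p = 0.00072), 1.07 for Hist1h2ai (adjusted p = 0.01), 1.04 for Hist2h2ac (adjusted p = 0.013), 0.90 for Hist1h4i (adjusted p = 0.027) and 0.72 for Hist1h1b (adjusted p = 0.031). H2afy, which encodes the variant macroH2A1, fell by 0.97 (adjusted p = 0.0063). The first 4 rises were called with any 1 of the 4 arrays left out; Hist2h2ac lost its call without NaCl 45 min replicate 1 (0.73, adjusted p = 0.19) and either 8 h array, Hist1h2ai without 45 min replicate 1 (adjusted p = 0.11) or 8 h replicate 1, H2afy without 45 min replicate 2 (adjusted p = 0.064) or 8 h replicate 1, and Hist1h4i and Hist1h1b without any of the 4. The replicate block added the linker gene Hist1h1c, at 1.26 (adjusted p = 0.026).

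**Figure D4:**
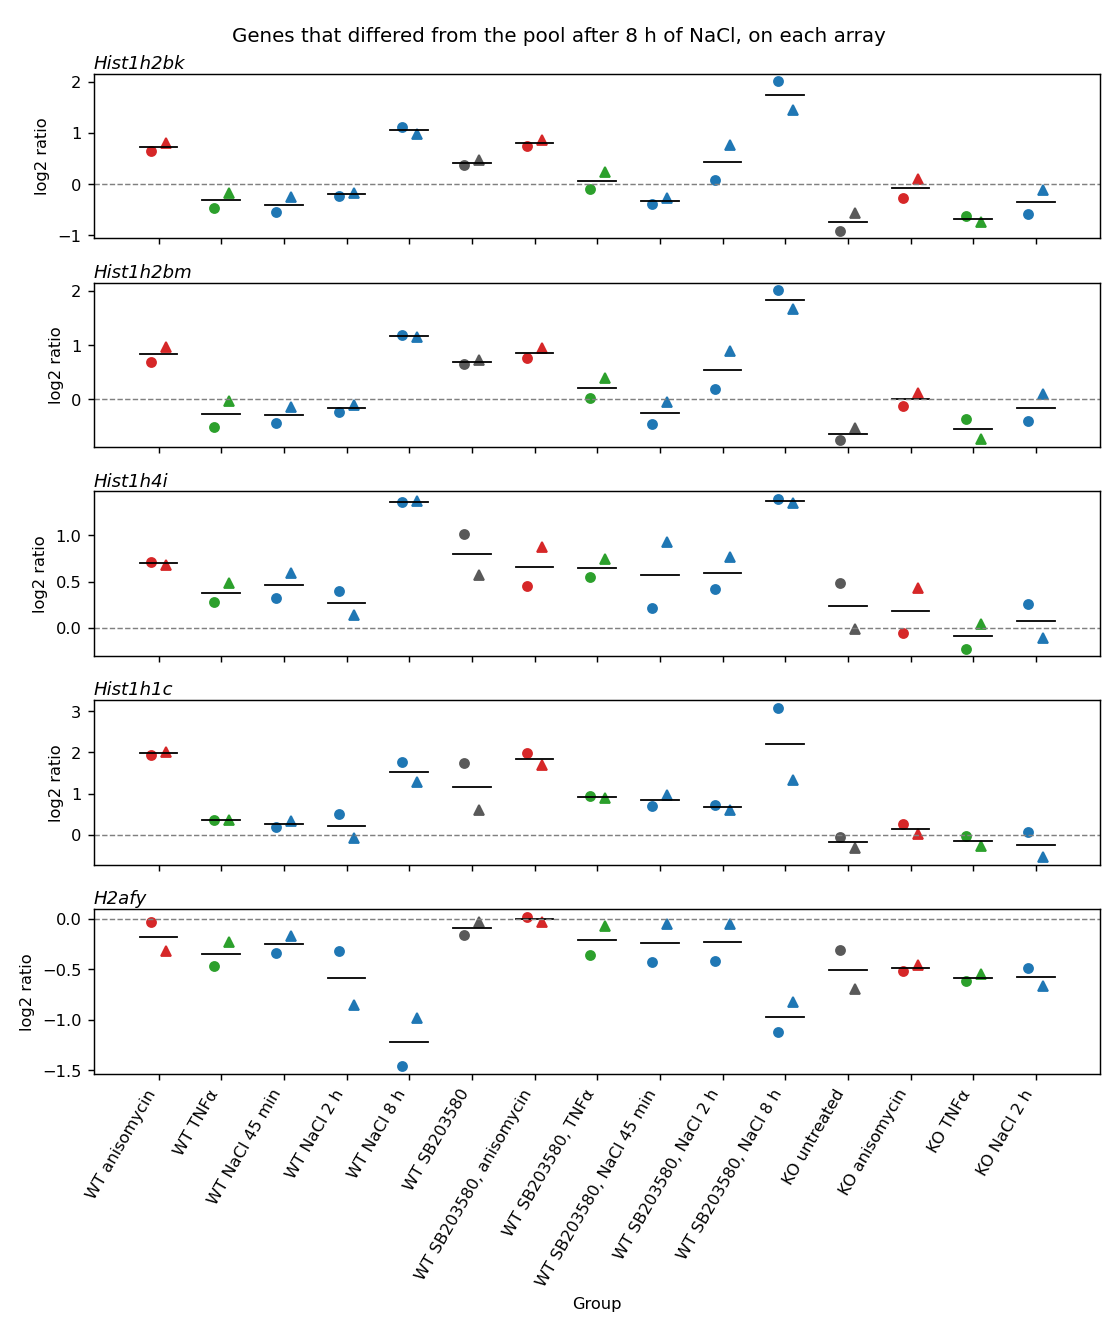
Log2 ratio to the pool of Hist1h2bk, Hist1h2bm, Hist1h4i, Hist1h1c and H2afy on each array (circles replicate 1, triangles replicate 2, bars the group mean, colours by stress as blue NaCl, red anisomycin, green TNFα, grey none), on axes that differ between panels. At 8 h of NaCl the first 4 genes lie above the pool on every array and H2afy lies below it.

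These 3 H2B genes and Hist1h4i were also higher than the pool with anisomycin. The log2 ratio was 0.64 and 0.80 for Hist1h2bk, 0.69 and 0.95 for Hist1h2bm, 0.70 and 0.87 for Hist3h2bb and 0.72 and 0.68 for Hist1h4i, with adjusted p from 0.0043 to 0.013. After SB203580 the values were 0.74 and 0.85, 0.77 and 0.95, 0.83 and 0.93, and 0.45 and 0.88, in the same order, and all 4 again passed, calls lost without either array (adjusted p from 0.056 to 0.35) except that Hist1h2bm held without replicate 1 (adjusted p = 0.048). None of the 4 calls with anisomycin alone held without either array (adjusted p from 0.064 to 0.21). With SB203580 alone, Hist1h4i (0.80) and Hist1h2bm (0.68) were also called higher, and Hist1h2bk (0.42) and Hist3h2bb (0.44) were not called. No higher call of that group held with either array left out. SB203580 with anisomycin against SB203580 alone gave 0 calls of 35 histone genes tested, where 2 of 14295 genes were higher. At an unadjusted p under 0.05 (limma) 4 histone genes passed, all higher with anisomycin, where 840 of all genes passed. Hist1h4i was called higher in 8 groups. In untreated p38α-/- MEFs the 3 H2B genes were lower than the pool, by -0.74 for Hist1h2bk (-0.92 and -0.57 on the arrays, adjusted p = 0.0047), -0.65 for Hist1h2bm (-0.75 and -0.54) and -0.60 for Hist3h2bb (-0.76 and -0.45), and the calls were lost for Hist1h2bk without replicate 1 (adjusted p = 0.24), for Hist1h2bm without either array (adjusted p = 0.31 and 0.055) and for Hist3h2bb without either (adjusted p = 0.44 and 0.052).

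In the linker family, Hist1h1c, the gene for the abundant somatic H1.2, had the largest rises. It was 3.94-fold above the pool with anisomycin (1.94 and 2.02 on the arrays, adjusted p = 0.00031), 3.58-fold after SB203580 and anisomycin (1.98 and 1.70) and 2.87-fold at 8 h of NaCl (1.76 and 1.28, adjusted p = 0.00078). After SB203580 and NaCl at 8 h its arrays read 3.08 and 1.32, the widest gap between arrays of any group, with a mean of 2.2 (adjusted p = 3.7e-05). These 4 calls held with either array left out.

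At the early times Hist1h1c was near the pool, with 0.36 and 0.37 for TNFα, 0.19 and 0.34 for NaCl at 45 min and 0.51 and -0.07 at 2 h. SB203580 alone gave 1.73 and 0.60 (mean 1.17, adjusted p = 0.0066, lost without replicate 1, adjusted p = 0.42), and with TNFα 0.94 and 0.91 (adjusted p = 0.049, lost without either). With the inhibitor and NaCl the arrays read 0.70 and 0.97 at 45 min and 0.73 and 0.61 at 2 h. In the 4 groups of p38α-/- MEFs all 8 arrays lay between -0.55 and 0.26, anisomycin included (0.26 and 0.01).

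Hist1h1e, another somatic linker gene, stood below the pool in most groups and above it at 8 h of NaCl. It was lower in 7 groups, down to -0.82 and -0.57 with SB203580 alone, and at 8 h it read 0.53 and 0.38 (mean 0.45, adjusted p = 0.014), a call lost without either array (adjusted p = 0.21 and 0.076). With SB203580 and NaCl for 8 h it exceeded the inhibitor alone by 0.88 (adjusted p = 0.0045). The titles give 2 h for the inhibitor alone, so NaCl and the longer time cannot be told apart in this contrast. That contrast also gave rises of 1.32 for Hist1h2bk, 1.15 for Hist1h2bm, 1.28 for Hist3h2bb and 0.51 for Hist2h4 and a fall of 0.87 for H2afy, 5 higher and 1 lower of 32 histone genes tested, where 2.03% and 5.76% of all genes were.

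Some genes lay below the pool in every group in which they were tested, untreated p38α-/- MEFs included. Hist1h1b, the gene for linker H1.5, was lower in 13 of 13 groups and negative on 28 of 28 arrays, from -1.72 to -0.61 with a median of -1.1. It read -1.52 and -1.72 at 45 min of NaCl (adjusted p = 1e-05) and -1.61 and -0.90 in untreated p38α-/- MEFs, and its 13 calls held with either array left out except that of SB203580 with NaCl for 8 h, which was lost without replicate 2 (adjusted p = 0.055). Hist2h4, an H4 gene of chromosome 3, was also lower in 13 of 13 groups, from -1.03 to -0.11 over 28 arrays, with TNFα at -0.77 and -1.03 (adjusted p = 9.9e-05), and 5 of its 13 calls, those of anisomycin, TNFα, NaCl at 45 min, SB203580 alone and SB203580 with NaCl at 2 h, held with either array left out.

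Hist1h1a, a further linker gene, was lower in 8 of 8 groups (22 of 22 arrays, from -1.64 to -0.52). H1fx was negative on 25 of 25 arrays. As a mean of its probes it passed only with SB203580 and NaCl at 8 h (-0.96, adjusted p = 0.015), a call lost without either array (adjusted p = 0.17 and 0.12). The H1fx probe A_51_P114843 alone was lower in all 10 groups that measured it on both arrays, from -0.96 to -0.67. H1f0, a linker gene of cells that have left the cycle, was negative on 27 of 27 arrays and passed with NaCl at 45 min (-0.74), at 2 h (-0.86) and in p38α-/- MEFs at 2 h (-0.78). At 2 h in wt MEFs its probes A_52_P442234 and A_52_P550932 read -0.26 and -1.28, and the brighter one alone did not pass (adjusted p = 0.15), while normexp ended the call at 45 min (adjusted p = 0.076). The calls were lost without either array at 45 min (adjusted p = 0.44 and 0.099) and 2 h (adjusted p = 0.25 and 0.11) and without replicate 2 in p38α-/- MEFs (adjusted p = 0.33). For these genes an effect of every treatment, of the dye and of the pool cannot be told apart, since no other untreated wt sample and no dye swap was used.

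Hist1h1d, the gene for H1.3, passed with anisomycin only, at a mean of 0.66 (adjusted p = 0.018), and its 3 probes disagreed. In that group A_51_P501260 and A_52_P660466 had means of 1.2 and 1.42, whereas the brightest probe, A_52_P10683, read -0.64. Over the 15 groups A_52_P10683 alone was lower in 10, A_51_P501260 was higher in 2, and A_52_P660466 was higher in 1 and lower in 1. The oocyte gene H1foo and the testis gene Hist1h1t had ratios above the pool on 29 of 30 arrays each, but the pool channel was saturated on 29 and 30 arrays and the Cy5 channel on 14 and 22, so no fold is given for either. On many first arrays the 2 genes had nearly identical ratios, as with 0.72 and 0.72 at 45 min of NaCl. Without members whose pool channel was saturated on both arrays, no histone gene was called higher with TNFα or with NaCl at 45 min or 2 h.

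The remaining named core genes moved less. Hist1h4f was lower in 7 groups (-0.54 to -0.32 where called) and Hist1h4d in 4, down to -1.0 with SB203580 and NaCl at 45 min (adjusted p = 0.0026). Hist1h4b passed with SB203580 and NaCl at 2 h (0.54), Hist2h2bb with SB203580 alone (0.33), and Hist1h2ba, a testis H2B gene, was lower with SB203580 alone and with SB203580 and NaCl at 45 min (-0.48 in each). Hist1h3a was never well above background in Cy5, and the H3 genes of the clusters therefore gave no readable change, since Hist1h3d was tested in 5 groups without a call and Hist2h3c1 in none. In all, 15 members passed in no group.

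Among the variants, H2afy fell with time in the hyperosmotic shock. Its log2 ratio was -0.34 and -0.17 at 45 min of NaCl, -0.32 and -0.86 at 2 h and -1.46 and -0.98 at 8 h (mean -1.22, 2.33-fold lower, adjusted p = 9.3e-06). With SB203580 it read -0.43 and -0.05, -0.42 and -0.05, and -1.12 and -0.83 at the same times. Both 8 h groups lay below every other wt array but the second at 2 h of NaCl, and both calls held with either array left out. In the 4 groups of p38α-/- MEFs, untreated ones included, the gene was lower as well, from -0.69 to -0.31 over 8 arrays, with adjusted p from 0.01 to 0.034, all lost when either array was left out and also with normexp background correction (adjusted p from 0.062 to 0.31). The call at 2 h of NaCl (-0.59, adjusted p = 0.015) was lost without replicate 2 (adjusted p = 0.32).

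H2afy3, the name under which the array holds a probe for macroH2A2, was lower in 6 of 8 groups, down to -0.69 in p38α-/- MEFs with anisomycin (adjusted p = 0.0029), a call lost without replicate 2 (adjusted p = 0.093), and its other 5 calls were lost without either array. H3f3b, one of the genes for the replacement histone H3.3, rose with anisomycin (1.45 and 1.02, 2.35-fold, adjusted p = 0.00095) and with SB203580 alone (1.45 and 0.27, adjusted p = 0.0054), and both calls were lost without replicate 1 (adjusted p = 0.098 with anisomycin). It was also higher with SB203580 and anisomycin (0.67, lost without either array, adjusted p = 0.41 and 0.14, and with its brightest probe, adjusted p = 0.28), and in p38α-/- MEFs by 0.66 untreated (lost without either array, adjusted p = 0.47 and 0.083) and 0.77 with anisomycin (lost without replicate 2, adjusted p = 0.34). H3f3a, the other H3.3 gene, passed in no group as a mean of its probes, although probe A_51_P456237 alone was higher in 11 groups, and H2afz, the gene for H2A.Z, passed in none, with means from -0.40 to 0.94, although its probe A_52_P468268 alone was higher in 3 of the 8 groups that measured it, up to 1.32 at 8 h of NaCl.

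Whether the movements needed p38 activity was asked with SB203580 and with the p38α-/- MEFs. SB203580 with a stress against the stress alone gave no histone gene past the test for any of the 5 stresses. limma called 0 of 31 with anisomycin (0 at an unadjusted p under 0.05; 0.0204% of all genes called), 0 of 35 with TNFα (4 unadjusted; 0%), 0 of 30, 0 of 38 and 0 of 34 for NaCl at 45 min, 2 h and 8 h (1, 4 and 3 unadjusted; 0%, 0% and 0.206%), and the mean of all 5 stresses gave 0 of 38 (6 unadjusted; 0.0626%). Over all genes, the unadjusted threshold was passed by 310 of 14699 with anisomycin, 204 of 14367 with TNFα and, for NaCl, 312 of 12180, 533 of 16729 and 758 of 15082. For the mean it was 765 of 17582. All 12 unadjusted differences of histone genes in the single stresses, and all 6 of the mean, were higher with the inhibitor. They are not independent, since the same 3 H2B genes, which may be read from a shared mRNA, count at 2 h and at 8 h.

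For the early fall of H2A genes the difference made by SB203580 at 45 min of NaCl was -0.15 for Hist1h2ai (95% interval -0.64 to 0.35) and -0.13 for Hist2h2ac (-0.65 to 0.38). At 2 h Hist2h2ac was 0.73 higher with the inhibitor (0.21 to 1.24, unadjusted p = 0.008), which did not pass the adjustment. For the anisomycin rise of Hist1h1c the difference was -0.14 (-0.99 to 0.71). Over the 5 stresses the H2B genes were higher with SB203580 by 0.37 for Hist1h2bk, 0.39 for Hist1h2bm and 0.41 for Hist3h2bb (unadjusted p from 0.0013 to 0.0019, adjusted p from 0.44 to 0.52).

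Between p38α-/- and wt MEFs under the same stress, 1 histone gene of 29 passed with anisomycin and was lower, where 0.756% of all genes were lower and 0.517% higher. It was Hist1h1c, whose arrays read 1.94 and 2.02 in wt and 0.26 and 0.01 in p38α-/- MEFs, a difference of -1.85 (SE 0.40, adjusted p = 0.028). The arrays of the 2 lines scanned on the same day differed by -1.76. With scanning day in the model the difference was -1.48 (adjusted p = 0.069), with the replicate block the adjusted p was 0.0067, and it rose to between 0.052 and 0.18 when any 1 of the 4 arrays (wt replicate 1 or 2, p38α-/- replicate 1 or 2) was left out. In untreated p38α-/- MEFs the gene was near the pool (-0.05 and -0.32), and anisomycin exceeded no treatment there by 0.32 (95% interval -0.53 to 1.16).

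With anisomycin, further genes passed under other settings, to 2 in all with normexp or with only spots well above background and 3 with the submitters' processed values. The replicate block gave 6 lower genes, which besides Hist1h1c were Hist1h1d (-0.97), Hist1h2ae (-1.23), Hist1h2bk (-0.80), Hist1h2bm (-0.83) and Hist3h2bb (-0.95). With scanning day in the model 4 were lower, Hist1h1d (-0.91), Hist1h2bk (-1.07), Hist1h2bm (-1.11) and Hist3h2bb (-1.22). On arrays of the same scanning day, Hist1h2bk differed by -1.07, Hist1h2bm by -1.08 and Hist3h2bb by -1.23. In the fit without these terms their adjusted p was 0.11, 0.11 and 0.06. These 3 H2B genes were already below the pool in untreated p38α-/- MEFs. There Hist1h2bm read -0.65 untreated and -0.01 with anisomycin, and Hist3h2bb -0.60 and -0.17. The probes of Hist1h2bk read -0.84 and -0.64 untreated and -0.16 and -0.005 with anisomycin. Anisomycin against no treatment in these cells gave 0 calls of 31 histone genes, where 13 of 16529 genes were higher. At an unadjusted p under 0.05 (limma) 5 histone genes passed, all core genes and all higher with anisomycin, where 579 of all genes passed. Whether the H2B rise needed p38α was not tested. For TNFα limma called 0 of 35 (2 unadjusted, where 0.414% of all genes were called and 1115 of 14265 passed unadjusted). For NaCl at 2 h it called 0 of 41 (4 unadjusted, where 0.697% were called and 2042 of 17645 passed unadjusted). At 2 h of NaCl, Hist1h2ai was 0.46 higher in p38α-/- MEFs (95% interval -0.03 to 0.95) and Hist2h2ac 0.34 higher (-0.17 to 0.85), neither past the test.

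**Figure D5:**
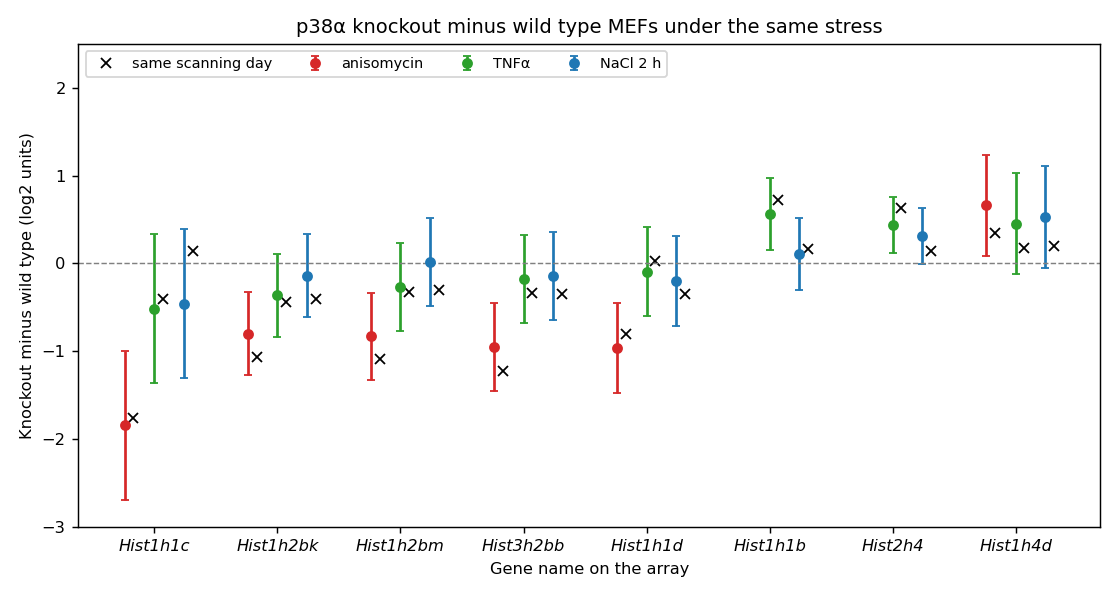
Difference in log2 ratio between p38α-/- and wt MEFs for 8 histone genes under anisomycin, TNFα and NaCl for 2 h (points with 95% intervals from limma; crosses are the first p38α-/- array minus the second wt array, scanned on the same day). Hist1h1b and Hist2h4 have no anisomycin point because 1 array did not measure them, and Hist1h1c with anisomycin is the lowest point.

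Over the 3 stresses together, 3 histone genes were higher and 2 lower in p38α-/- MEFs of 40 tested, where 3.47% and 4.19% of all genes were. Higher were Hist1h1b (0.47, adjusted p = 0.025), Hist2h4 (0.46, adjusted p = 0.0062) and Hist1h4d (0.55, adjusted p = 0.042), and lower were Hist1h1c (-0.94, adjusted p = 0.018) and Hist1h2bk (-0.44, adjusted p = 0.048). Hist1h1b and Hist2h4 rest on 1 p38α-/- anisomycin array here. Hist2h4 was called with each array left out in turn, as long as every group stayed measured, whereas Hist1h1c lost it without wt NaCl replicate 1 (adjusted p = 0.062) or p38α-/- NaCl replicate 2 (adjusted p = 0.066), and Hist1h1b lost it without any of 5 arrays, Hist1h4d without any of 8 and Hist1h2bk without any of 10 (adjusted p up to 0.13). The brightest probe of Hist1h4d gave 0.017. With normexp background correction 2 were higher and 3 lower, and with the submitters' processed values 4 and 9. With the replicate block 4 genes were higher and 8 lower, and with scanning day in the model 0 were higher and 4 lower, Hist1h2bk (-0.61), Hist1h2bm (-0.52), Hist3h2bb (-0.63) and H3f3a (-0.77).

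The machinery around histones was read from 3 lists made by symbol, 8 genes of histone mRNA processing and transcription, 12 chaperones and assembly factors and 16 S phase genes on the array. The S phase list had its most higher genes in the groups without a stress, 6 higher and 1 lower of 9 with SB203580 alone (median 0.53, where 14.7% and 11.8% of all genes were called) and 6 higher of 12 in untreated p38α-/- MEFs (median 0.36, 8.02% of all genes). With SB203580 and NaCl for 8 h against the inhibitor alone, 3 of 7 were lower (median -0.44, 5.76% of all genes), a contrast in which time differs as well. At 8 h of NaCl, where 11% of all genes were higher and 11.2% lower, 4 S phase genes were higher and 2 lower of 12 tested, among them the replication licensing factor Cdc6 (0.91) and Rrm1 (0.42), higher, and Rrm2 (-0.89), the small subunit of ribonucleotide reductase, and Ccne1 (-0.47), lower. In the same group the chaperone Rbbp4 was the 1 higher gene of 8 (0.75), and the cleavage factors Sympk (-0.47) and Cpsf3 (-0.46) were the 2 lower genes of 4 in the processing list. At 45 min of NaCl (4.69% and 5.19% of all genes), none of 8 S phase genes and none of 3 processing genes passed, and of 6 chaperones Asf1a was higher (0.40) and Anp32e lower (-0.43). With anisomycin Ccna2 (0.70) and Rrm2 (0.69) were the 2 higher of 8 S phase genes, where 5.72% of all genes were.

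Their medians beside that of all genes were 0.17 for S phase and -0.39 for processing at 8 h of NaCl, where all genes had 0.0024, and 0.22 for S phase at 45 min, where all genes had 0.014. None of the 3 lists had a gene past the test for SB203580 with a stress against the stress alone, in any of the 5 stresses or their mean. Over 3 stresses, p38α-/- MEFs were higher for the chaperone Asf1b (0.45) and for Lsm11 of the histone processing complex (0.63) and lower for cyclin A2, Ccna2 (-0.33). Ccna2 was higher than the pool in 9 groups, and what part cycling cells had in the histone values was not tested.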

How the data were processed

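Total RNA of 30 samples, 2 independent experiments for each of 15 groups, was hybridised to 2-colour Agilent 44K arrays and read with Agilent Feature Extraction (8.1.1.1 in the file headers, 9.1 in the submitters' processing notes). In the deposited files the authors give intensity values per spot and a log10 ratio of Cy5 over Cy3 after spatial detrending and linear and LOWESS dye normalization without local background subtraction. A second deposited table holds log2 ratios by its values, centred near 0; its exact processing was not given in the sources used here. The deposited log10 ratios were converted to log2, outlier spots were left out, and spots were averaged to probes and probes to genes by the array's symbols. A gene was tested in a group when at least 1 of its probes was measured on each array. The mean of a gene with several probes may therefore rest on different probes on the 2 arrays. At 45 min of NaCl, for example, H1f0 had -0.74, while its only probe measured on both arrays read -0.61.

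One model of 15 group means was fitted over all named genes with limma 3.58.1 (R 4.3.3), with 26 comparisons planned and 11 added after the data were seen. p-values were adjusted by Benjamini-Hochberg over all genes measured on every array compared (for a mean over stresses, on at least 1 array of each group) and called under 0.05. Tables were made with Python 3.11.15, numpy 2.4.6 and pandas 2.3.3. The number of arrays limits the precision. The p-values rest on the spread between the 2 experiments of a group, taken as 1 moderated value per gene shared over the 15 groups of both lines. They do not cover the spread between lines of 1 genotype. The scripts were tested on simulated data. The members and lists were chosen with earlier results of these data known. The members named were the linker and variant genes measured on both arrays of at least 8 groups and the 15 core genes with the smallest adjusted p in any comparison, with array values for the 10 smallest against the pool, and list genes only where they passed. H2afy2, Hist1h3a, Hist1h3d, Hist2h2aa1, Hist2h3c1, Hist3h2a and Hist4h4 were named after their values were seen.

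Replicate numbers were checked for pairing. The deviations of same-numbered arrays from their group means correlated above 0.1 in 55 of 55 pairs of wt groups (median 0.46) and 6 of 6 pairs of p38α-/- groups (median 0.25), but in 6 of 44 pairs across genotypes, so the numbers pair arrays within a genotype. In wt MEFs they coincide with the scanning day. Alternatives were a replicate block within genotype, normexp background correction (offset 50) with loess, the deposited log2 table, only spots well above background, no saturated spots, outlier spots kept, the brightest probe, each array left out, and, added after seeing the data, scanning day as a term and each probe on its own.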

Additional observations from a re-analysis of the deposited data

Results flagged for a closer look

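For 6 results the difference between wt and p38α-/- MEFs was itself tested and passed, Hist1h1c under anisomycin and the others over the mean of 3 stresses. With 1 line of each kind, line and genotype cannot be told apart. With anisomycin, Hist1h1c was lower in p38α-/- MEFs by -1.85 on the log2 scale. Over the mean of 3 stresses Hist1h1c was lower by -0.94 and Hist1h2bk by -0.44, and Hist1h1b was higher by 0.47, Hist1h4d by 0.55 and Hist2h4 by 0.46. With scanning day in the model these 6 differences were -1.48, -0.60, -0.61, 0.35, 0.26 and 0.35, and of them only Hist1h2bk stayed under an adjusted p of 0.05 (limma).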

How the results depend on the processing

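Of 180 called values over 26 comparisons, 150 kept their direction and their side of the threshold in every alternative other than leaving out an array. Leaving out 1 array ended the call in 226 of 428 checks. The replicate block, and keeping outlier spots, ended none of the 180. Normexp ended 19 calls, the deposited log2 table ended 8, the brightest probe 8, 3 of them with the direction turned, scanning day 5 of 15, the background filter 1 and leaving out saturated spots 1, also turned. Directions turned for Hist1h1d with anisomycin (-0.64, brightest probe), Hist1h2af with NaCl at 45 min without and with SB203580 (0.27 and 0.45, brightest probe) and Hist1h2af with SB203580 and TNFα (-0.084, saturated spots left out). The cause was not tested. Each group had 2 arrays against 1 pool in 1 dye orientation. Leaving out arrays was not run for the 11 added comparisons.

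Counts of called histone genes moved over 1.5 times as follows. With the replicate block they became 21 for NaCl at 45 min, 16 for SB203580 with TNFα, 15 for untreated p38α-/- MEFs, 11 for p38α-/- with TNFα, 6 for genotype with anisomycin and 12 for genotype over 3 stresses. With the deposited log2 table, which tests 45 or 46 members, they became 27 for anisomycin, 16 for TNFα, 22, 17 and 25 for NaCl at 45 min, 2 h and 8 h, 25 for SB203580, 28 and 19 for SB203580 with anisomycin and TNFα, 24, 19 and 25 for SB203580 with NaCl at 45 min, 2 h and 8 h, 18, 12, 12 and 19 for p38α-/- MEFs untreated and with anisomycin, TNFα and NaCl, and 3 and 13 for genotype with anisomycin and over 3 stresses. With outlier spots kept, which tests all 47, they became 24 for anisomycin, 17 for TNFα, 16 and 22 for NaCl at 2 h and 8 h, 29 for SB203580, 22 and 16 for SB203580 with anisomycin and TNFα, 23 and 17 for SB203580 with NaCl at 45 min and 2 h, 21, 8 and 12 for p38α-/- MEFs untreated and with anisomycin and TNFα, and 11 for genotype over 3 stresses. The brightest probe gave 13 for TNFα and 13 for SB203580 with NaCl at 2 h. Each probe on its own, counted as probes, gave 15 for TNFα, 17 and 23 for NaCl at 2 h and 8 h, 14 for SB203580 with NaCl at 2 h, 16, 8, 11 and 20 for p38α-/- MEFs untreated and with anisomycin, TNFα and NaCl, and 2 for genotype with anisomycin. For that last comparison normexp and the background filter gave 2 and scanning day 4, and normexp gave 8 for p38α-/- with anisomycin.

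With 1 array left out, the counts ran from 4 to 7 for anisomycin, 3 to 5 for TNFα, 5 to 9, 6 to 7 and 10 to 10 for NaCl at 45 min, 2 h and 8 h, and 4 to 18 for SB203580. They ran from 5 to 5 and 1 to 2 for SB203580 with anisomycin and TNFα, and 7 to 10, 3 to 7 and 7 to 10 with NaCl at 45 min, 2 h and 8 h. In p38α-/- MEFs they ran from 1 to 7, 0 to 4, 1 to 1 and 3 to 6 for no treatment, anisomycin, TNFα and NaCl. For genotype they ran from 0 to 1 with anisomycin, 0 to 0 with TNFα, 0 to 1 with NaCl and 2 to 7 over 3 stresses, for 8 h against 45 min of NaCl from 4 to 8, and for SB203580 effects from 0 to 0.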

Other observations

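Single probes differed between genotypes where their gene's mean did not pass. Probe A_52_P660466 of Hist1h1d, the gene for linker H1.3, was lower in p38α-/- MEFs by -2.19 with anisomycin (adjusted p = 0.0029, limma over all probes) and by -1.09 over 3 stresses (adjusted p = 0.0021). Probe A_52_P615375 of Hist3h2a, a core H2A gene, was lower by -0.85 over 3 stresses (adjusted p = 0.0087). The other probes of Hist1h1d did not pass in these comparisons. Which transcripts these probes read was not tested.

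With TNFα, 4 H2A genes were higher after SB203580 than without it at an unadjusted p under 0.05, none after adjustment (limma). Of all genes, 204 of 14367 passed unadjusted there, in either direction. The differences were 0.60 for Hist2h2ac, 0.55 for Hist1h2ai, 0.48 for Hist1h2af and 0.44 for Hist1h2ad. At 2 h of NaCl the unadjusted differences made by SB203580 were 0.73 for Hist2h2ac and 0.63 to 0.71 for the H2B genes Hist1h2bk, Hist1h2bm and Hist3h2bb.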
